A study of Rattus norvegicus with 15 samples.

Results

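Focal adhesion and actin cytoskeleton genes were followed in smooth muscle cells (SMC) of the rat aorta, grown in culture and sampled as 4 groups of libraries. The set was named gene by gene and holds 36 proteins of adhesion plaques and stress fibres. Of these, 35 matched the name of 1 of the 32623 gene entries in the deposited table. Palld, the stress fibre scaffold palladin, is in the table only as the entries Palld_1 and Palld_2 and is given apart. Pdlim3 was listed at 0 in all 15 libraries, so 34 members passed the filter on low genes (at least 1 TPM in at least 3 libraries) and were tested.

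Focal adhesions are the plaques where integrins in the membrane hold matrix outside the cell and actin filaments inside it. Talin and kindlin bind integrin tails, vinculin and the ILK, PINCH and parvin complex reinforce the link to actin, and FAK, Src and paxillin carry signals from it. Filamins, alpha-actinins and LIM domain proteins crosslink and tune the stress fibres that end in these plaques. In SMC this chain passes contractile force to the aortic wall, and many of its genes are known targets of serum response factor (SRF), which acts with myocardin and with the actin-regulated MRTF coactivators.

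Control SMC, the cell line labelled Myocd-LSD1 and the cell line labelled Myocd-LSD1NF had 4 libraries each, and SMC given PDGF-BB had 3. Myocd-LSD1 is a fusion of myocardin with the histone demethylase LSD1, used per the series design to remove H3K4me2 from SMC genes. No source used here says what NF stands for, how the lines were made or whether a line is 1 clone. Control and PDGF-BB cells are both labelled WT. PDGF-BB is a growth factor to which SMC respond by dividing. Cells kept serum-free for 48 h then received it for 24 h at a dose of 30 ng/ml, and all cells were without serum for 72 h before harvest. The labels name untreated cells, not a vehicle, as control, and PDGF-BB was dissolved in acetic acid.

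Values are TPM, the authors' transcript abundances scaled per length and to one fixed total per library, which keep no depth, so the sequencing depth is unknown. Within groups, Pearson correlations of log2(TPM + 1) between libraries ran from 0.961 to 0.988, and between 11306 and 11702 genes reached 1 TPM. Within Myocd-LSD1, libraries 2 and 4 were closest (0.987) and libraries 1 and 3 next (0.981), against 0.961 to 0.978 for the other pairs. Myocd-LSD1NF 4 correlated with its group at 0.963 to 0.967, against 0.983 to 0.987 among the other 3. Whether replicates came from separate cultures is not in the labels, and the p-values therefore cover the scatter of these libraries alone, which may be technical. Of 8 SMC markers none was under 1 TPM in every library of a group, and 7 were lower and 1, Des, higher in Myocd-LSD1. Des was low throughout, at 0.870 ± 0.544 TPM in control, 1.34 ± 0.406 with PDGF-BB, 5.51 ± 1.61 in Myocd-LSD1 and 0.5075 ± 0.348 in Myocd-LSD1NF. The list had summed TPM of 17600 to 22000 in control, 5330 to 7160 with PDGF-BB, 3450 to 6120 in Myocd-LSD1 and 9530 to 20500 in Myocd-LSD1NF. Endothelial markers summed to at most 6.88 TPM. Of 7 leukocyte markers, at least 5 were under 1 TPM in every library of each group, and of 8 epithelial markers at least 6. The sums of these lists were carried by Cd14 (45.5 ± 4.83 TPM in control and 166 ± 64.9 in Myocd-LSD1) and Krt8 (19.2 ± 3.76 and 41.1 ± 14.7 TPM). Both rose in Myocd-LSD1 and with PDGF-BB. So did Cd68, a macrophage marker, from 0.312 ± 0.223 TPM in control to 1.34 ± 0.196 in Myocd-LSD1 and 0.867 ± 0.0651 with PDGF-BB. Erg, the one endothelial marker that passed the filter, fell from 4.64 ± 1.78 TPM to 0.910 ± 0.485 and 0.363 ± 0.210 TPM. Krt19 read 0.0325 ± 0.0377 TPM in control and 1.235 ± 0.875 in Myocd-LSD1. Epcam read 0.04 ± 0.0490 TPM in control and 1.17 ± 0.381 with PDGF-BB, and neither of these 2 genes passed the filter. Cd14 was also above every control in Myocd-LSD1NF (55.3 to 137 against 38.7 to 49.4 TPM) but did not pass there (limma, adjusted p = 0.278). Striated muscle markers summed to 124 to 215 TPM in control, 16.7 to 28.6 with PDGF-BB, 18.7 to 34 in Myocd-LSD1 and 2.92 to 42.4 in Myocd-LSD1NF. The part of these markers in the other results was not tested. In bulk libraries, fewer cells of a type and less RNA per cell cannot be told apart.

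In control SMC the set was highly expressed, with a median of 298 TPM over the 35 members against 19.9 TPM over all tested genes. A control mean of at least 1000 TPM was reached by 8 members, led by the cytoplasmic actins Actb (8464 ± 708 TPM) and Actg1 (4492 ± 247 TPM). Flna, Csrp1, Cfl1, Fhl1, Pfn1 and Vcl followed, from 2256 to 1062 TPM. At the other end stood Synpo2 (10.4 ± 2.02 TPM), Lpp (33.8 ± 8.03 TPM) and Fhl2 (38.05 ± 5.60 TPM). Together the 35 members made up 2.73% to 3.23% of all TPM in control libraries and 2.64% to 3.17% in Myocd-LSD1NF. They made up 2.43% to 2.55% with PDGF-BB and 1.83% to 2.35% in Myocd-LSD1. Without Actb and Actg1 the share was 1.55% to 1.84% in control, 1.34% to 1.74% in Myocd-LSD1NF, 1.31% to 1.33% with PDGF-BB and 0.828% to 1.09% in Myocd-LSD1. The 2 actins held 42.9% to 43.5% of the sum in control and more in every library of the other 3 groups. Their part was 44.3% to 49.4% in Myocd-LSD1NF, 45.4% to 48.7% with PDGF-BB and 52.4% to 55.4% in Myocd-LSD1.

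In the Myocd-LSD1 line, 25 of the 34 tested members were lower than in control and 0 were higher, by limma with Benjamini-Hochberg adjustment over all 12207 tested genes. At an unadjusted p under 0.05, 26 members passed and again 0 were higher. The background was 32.2% of tested genes called in either direction, 16.9% higher and 15.4% lower, against 73.5% of members. Among the 1542 tested genes averaging at least 100 TPM, a bound chosen after the data were seen, 17.6% were called higher and 20.6% lower. Of the members, 15 fell at least 2-fold (1 log2 unit or more), where 12.1% of tested genes were called with a change of that size in either direction. The median log2 fold change was -0.861 over the members and 0.0298 over all tested genes. Myocd-LSD1NF gave 0 calls among the same 34 members, where 2.21% of all tested genes were called. PDGF-BB gave 4 higher and 11 lower, where 19.2% of all tested genes were called higher and 8.5% lower. These 3 comparisons share the 4 control libraries.

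**Figure D1:**
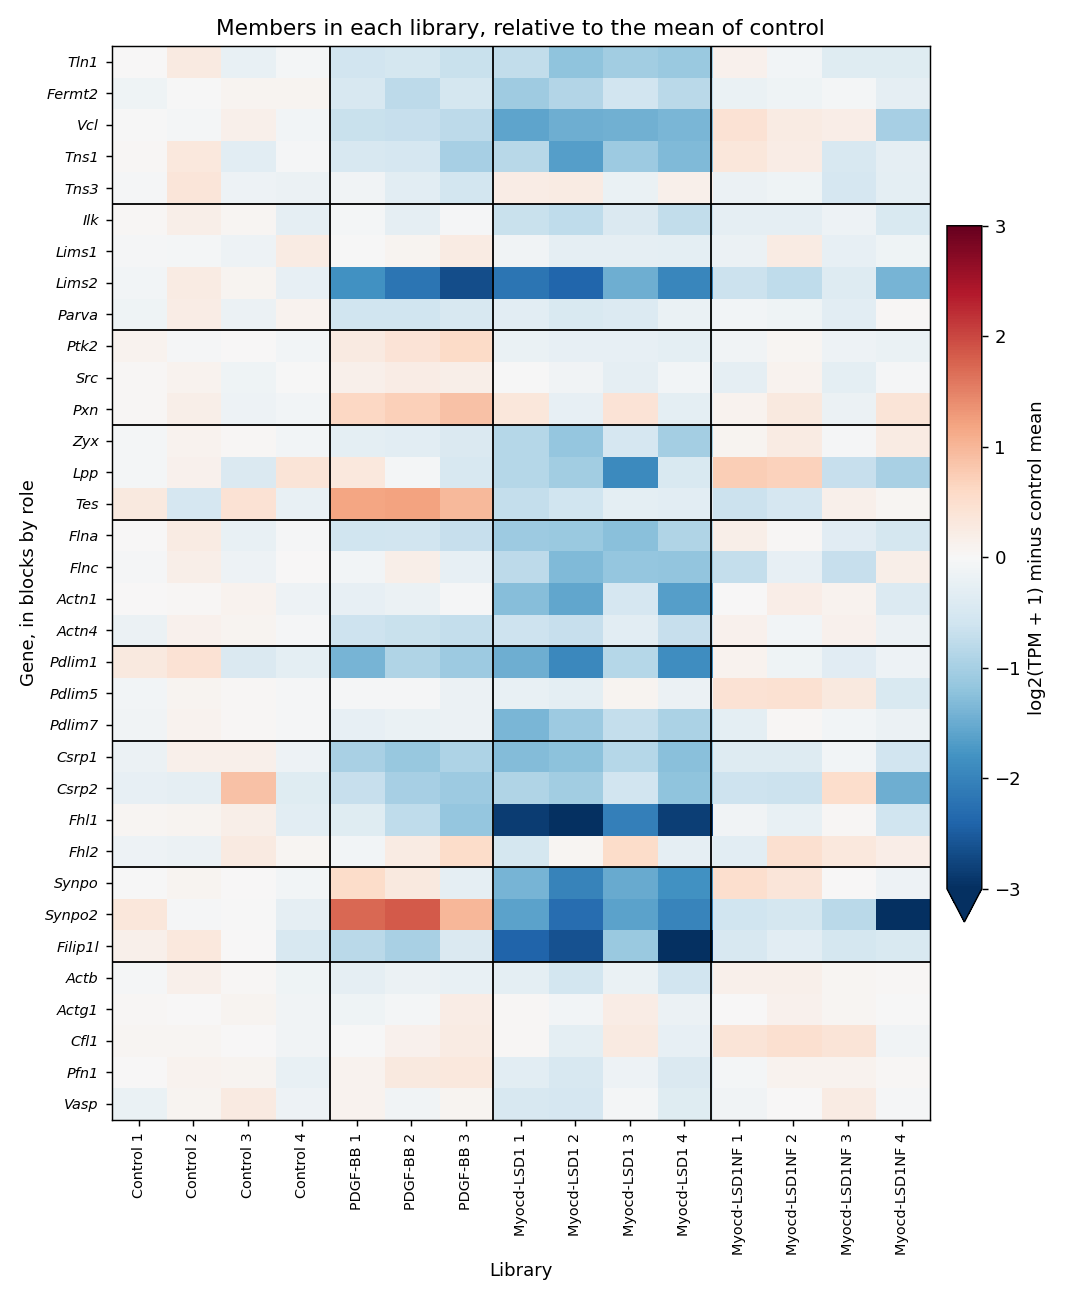
Colour gives log2(TPM + 1) of each of the 34 detected members (rows, in blocks by role) in each of the 15 libraries (columns), minus the mean of the 4 controls, with values below -3 drawn as -3. The Myocd-LSD1 columns are blue for most members, Lims2 is blue in the Myocd-LSD1 and PDGF-BB columns, and Tes and Synpo2 are reddest in the PDGF-BB columns.

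Of the linkers that join integrins to actin, 4 of 5 fell in Myocd-LSD1 (Vcl, Tln1, Tns1 and Fermt2), and the values of each with PDGF-BB are given beside them. Vcl, vinculin, read 1055, 1014, 1184 and 994 TPM in controls 1 to 4, 671, 651 and 611 in PDGF-BB 1 to 3, 352, 385, 392 and 411 in Myocd-LSD1 1 to 4, and 1422, 1249, 1224 and 535 in Myocd-LSD1NF 1 to 4. All Myocd-LSD1 libraries lay below all PDGF-BB libraries, which lay below all controls, while Myocd-LSD1NF 4 stood far below the rest of its group. Its log2 fold change, on the log2(TPM + 1) scale ± SE, was -1.46 ± 0.22, adjusted p = 0.000142 in Myocd-LSD1 and -0.72 ± 0.24, adjusted p = 0.0376 with PDGF-BB. The PDGF-BB call for Vcl was lost without any 1 of the 7 control and PDGF-BB libraries, and without Myocd-LSD1 2 and 4 together. It was also lost with no filter on low genes and under quantile normalization. The call held in 15 of 25 alternatives, among them a fit to only the groups being compared. Over all alternatives its adjusted p ran from 0.000198 to 0.111.

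Tln1, talin, which activates integrins, read 398, 471, 333 and 377 TPM in controls 1 to 4, 261, 270.1 and 245 in PDGF-BB 1 to 3, 236, 169.9, 188 and 182 in Myocd-LSD1 1 to 4, and 429, 371, 304 and 306 in Myocd-LSD1NF 1 to 4. The Myocd-LSD1 and PDGF-BB libraries all lay below the lowest control, and Myocd-LSD1NF overlapped control. Tln1 fell in Myocd-LSD1 (-1.02 ± 0.14, adjusted p = 4.13e-05) and with PDGF-BB (-0.60 ± 0.15, adjusted p = 0.00776). Tns1, a tensin of fibrillar adhesions, read 368, 454, 291 and 352 TPM in controls 1 to 4, 260.3, 253 and 181 in PDGF-BB 1 to 3, 202, 113, 169 and 144 in Myocd-LSD1 1 to 4, and 460.2, 421, 260.4 and 301 in Myocd-LSD1NF 1 to 4. It fell in Myocd-LSD1 (-1.23 ± 0.21, adjusted p = 0.000376), with all libraries of the line below all controls, and also with PDGF-BB (-0.66 ± 0.23, adjusted p = 0.0422). The PDGF-BB call for Tns1 was lost without control 1, 2 or 4 or any PDGF-BB library and with no filter on low genes (adjusted p of up to 0.189). Fermt2, kindlin-2, a partner of talin, went from 314 ± 20.5 TPM in control to 176 ± 24.7 in Myocd-LSD1 (-0.84 ± 0.10, adjusted p = 2.43e-05) and 208 ± 22.2 with PDGF-BB (-0.59 ± 0.11, adjusted p = 0.00163). Tns3, a second tensin, did not pass in either comparison, at 71.1 ± 13.2, 56.4 ± 9.03, 76.3 ± 10.4 and 57.9 ± 6.63 TPM in control, PDGF-BB, Myocd-LSD1 and Myocd-LSD1NF.

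Within the ILK, PINCH and parvin complex, 3 of 4 genes fell in Myocd-LSD1. Lims2, PINCH-2, read 154, 194, 171 and 136 TPM in controls 1 to 4, 45.1, 34.6 and 25.03 in PDGF-BB 1 to 3, 34.5, 30.5, 58.6 and 41.4 in Myocd-LSD1 1 to 4, and 104, 95.97, 124 and 60.7 in Myocd-LSD1NF 1 to 4. Every library of the other 3 groups lay below every control, the PDGF-BB and Myocd-LSD1 ones lowest. Lims2 fell in Myocd-LSD1 (-1.99 ± 0.24, adjusted p = 1.47e-05) and with PDGF-BB (-2.22 ± 0.25, adjusted p = 3.82e-05), and the direct difference between these groups was 0.23 ± 0.25 (adjusted p = 0.530). Lims1, PINCH-1, did not pass, with means from 38.8 ± 2.54 TPM in Myocd-LSD1 to 49.6 ± 4.89 TPM with PDGF-BB. The Lims1 to Lims2 ratio was 0.227 to 0.403 in control libraries, 0.308 to 0.695 in Myocd-LSD1NF, 0.644 to 1.24 in Myocd-LSD1 and 1.01 to 2.20 with PDGF-BB.

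Ilk, the scaffold of the complex, read 443, 492, 454 and 361 TPM in controls 1 to 4, 416, 359.8 and 423 in PDGF-BB 1 to 3, 275, 258, 319.8 and 260.0 in Myocd-LSD1 1 to 4, and 360.4, 361, 389.7 and 318 in Myocd-LSD1NF 1 to 4. The Myocd-LSD1 libraries lay below every control and every PDGF-BB library, and overlapped Myocd-LSD1NF through library 4 of that line. Ilk fell in Myocd-LSD1 (-0.65 ± 0.11, adjusted p = 0.000357) and did not pass with PDGF-BB (-0.13 ± 0.12, adjusted p = 0.462). Parva, alpha-parvin, which ties the complex to actin, went from 242 ± 32.8 TPM in control to 189.8 ± 15.3 in Myocd-LSD1 (-0.34 ± 0.10, adjusted p = 0.0207) and 164 ± 7.26 with PDGF-BB (-0.55 ± 0.11, adjusted p = 0.00272). The Myocd-LSD1 call for Parva was lost without Myocd-LSD1 2, control 2 or control 4 (adjusted p of up to 0.0733).

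Of the 3 signalling members, Pxn and Ptk2 rose with PDGF-BB. Pxn, paxillin, the docking scaffold of the plaque, rose from 97.4 ± 9.87 to 162 ± 14.3 TPM with PDGF-BB (0.73 ± 0.18, adjusted p = 0.00768), with no overlap with control, and stood at 103 ± 27.3 TPM in Myocd-LSD1 (0.05 ± 0.17, adjusted p = 0.849). In that line Pxn was split, at 124 and 129.6 TPM in libraries 1 and 3 and 81.1 and 78.4 TPM in libraries 2 and 4. Ptk2, focal adhesion kinase, rose from 60.9 ± 3.41 to 81.95 ± 9.36 TPM with PDGF-BB (0.42 ± 0.09, adjusted p = 0.00431). It was lower in Myocd-LSD1 (51.1 ± 1.14 TPM, -0.25 ± 0.09, adjusted p = 0.0375), a call lost without any 1 Myocd-LSD1 library or control 1, 2 or 3 (adjusted p of up to 0.148). Src, the tyrosine kinase that works with FAK, read 44.7, 46.4, 39.2 and 42.99 TPM in controls 1 to 4, 47.97, 50.8 and 48.9 in PDGF-BB 1 to 3, 43.2, 40.4, 35.97 and 40.6 in Myocd-LSD1 1 to 4, and 35.6, 46.6, 35.1 and 42.4 in Myocd-LSD1NF 1 to 4. All PDGF-BB libraries lay above the highest control, by little, and Src passed in no comparison (0.18 ± 0.11, adjusted p = 0.225 with PDGF-BB).

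Of the zyxin family and related LIM proteins, which gather on stress fibres under tension, Zyx and Lpp fell in Myocd-LSD1 and Tes rose with PDGF-BB. Zyx, zyxin, read 434, 488, 461 and 429 TPM in controls 1 to 4, 368, 365 and 334 in PDGF-BB 1 to 3, 250.1, 202, 318 and 222 in Myocd-LSD1 1 to 4, and 479, 539, 445 and 537 in Myocd-LSD1NF 1 to 4. The Myocd-LSD1 libraries were the lowest and did not overlap any other group (-0.88 ± 0.12, adjusted p = 5.93e-05 against control). With PDGF-BB Zyx did not pass (-0.35 ± 0.13, adjusted p = 0.0631), though it did under median-of-ratios scaling, quantile normalization, array weights and a fit to only the groups being compared, and without Myocd-LSD1 2, Myocd-LSD1 3 or Myocd-LSD1 2 and 4 together. Tes, testin, read 83.9, 47.3, 92.95 and 57.8 TPM in controls 1 to 4, 155, 159 and 134 in PDGF-BB 1 to 3, 41.3, 44.95, 55.6 and 54.4 in Myocd-LSD1 1 to 4, and 43.3, 48.0, 75.5 and 70.9 in Myocd-LSD1NF 1 to 4. It stood apart in the 3 PDGF-BB libraries, all above the highest control (1.12 ± 0.23, adjusted p = 0.00278), while the Myocd-LSD1 libraries overlapped control (-0.47 ± 0.21, adjusted p = 0.107).

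Lpp read 31.9, 36.1, 24.1 and 43.2 TPM in controls 1 to 4, 41.6, 31.9 and 23.6 in PDGF-BB 1 to 3, 17.98, 15.6, 8.04 and 23.9 in Myocd-LSD1 1 to 4, and 55.8, 53.8, 20.2 and 16.4 in Myocd-LSD1NF 1 to 4. It was variable, with Myocd-LSD1NF 1 and 2 above all controls and Myocd-LSD1NF 3 and 4 below them, and the Myocd-LSD1 libraries all lay below the controls, Myocd-LSD1 4 only just below control 3. Its fall in Myocd-LSD1 (-1.07 ± 0.38, adjusted p = 0.0460) was lost without Myocd-LSD1 1, 2 or 3, control 1, 2 or 4 or any PDGF-BB library, with a pseudocount of 5 and with no filter on low genes, with an adjusted p of up to 0.135.

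All 4 actin crosslinkers fell in Myocd-LSD1. Flna, filamin A, the most abundant of them, read 2261, 2642, 1934 and 2187 TPM in controls 1 to 4, 1485, 1497 and 1395 in PDGF-BB 1 to 3, 1055, 1036, 933 and 1206 in Myocd-LSD1 1 to 4, and 2526, 2304, 1762 and 1561 in Myocd-LSD1NF 1 to 4. Its Myocd-LSD1 libraries were the lowest, followed by PDGF-BB, and neither overlapped control. Flna fell in Myocd-LSD1 (-1.09 ± 0.15, adjusted p = 6.68e-05) and with PDGF-BB (-0.62 ± 0.16, adjusted p = 0.0122), the latter missing the threshold under quantile normalization (adjusted p = 0.0572). Flnc, filamin C, the muscle filamin, read 211, 243, 193 and 219 TPM in controls 1 to 4, 203, 244 and 181 in PDGF-BB 1 to 3, 124, 85.2, 96.6 and 94.03 in Myocd-LSD1 1 to 4, and 130.1, 182, 134 and 246 in Myocd-LSD1NF 1 to 4. Only the Myocd-LSD1 libraries all lay below the controls (-1.12 ± 0.18, adjusted p = 0.000231), and PDGF-BB did not pass (-0.06 ± 0.19, adjusted p = 0.863).

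Actn1 and Actn4 encode the non-muscle alpha-actinins, which bundle actin and anchor it at the plaque. Actn1 read 949, 966, 1009 and 839 TPM in controls 1 to 4, 788, 829.9 and 915 in PDGF-BB 1 to 3, 384, 316, 656 and 298 in Myocd-LSD1 1 to 4, and 939.6, 1075, 1010.0 and 711 in Myocd-LSD1NF 1 to 4. Myocd-LSD1 3 was the highest of its line and still below every control. Actn1 fell in Myocd-LSD1 (-1.26 ± 0.20, adjusted p = 0.000230) and did not pass with PDGF-BB (-0.16 ± 0.22, adjusted p = 0.634). Actn4 fell in both, from 757 ± 68.3 TPM to 507 ± 66.7 TPM in Myocd-LSD1 (-0.58 ± 0.11, adjusted p = 0.000866) and 474 ± 14.1 TPM with PDGF-BB (-0.67 ± 0.12, adjusted p = 0.00101). The Actn1 to Actn4 ratio was 1.13 to 1.42 in control, 1.61 to 1.99 with PDGF-BB, 0.637 to 1.08 in Myocd-LSD1 and 1.07 to 1.51 in Myocd-LSD1NF, so the PDGF-BB libraries lay above and the Myocd-LSD1 libraries below the control range.

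**Figure D2:**
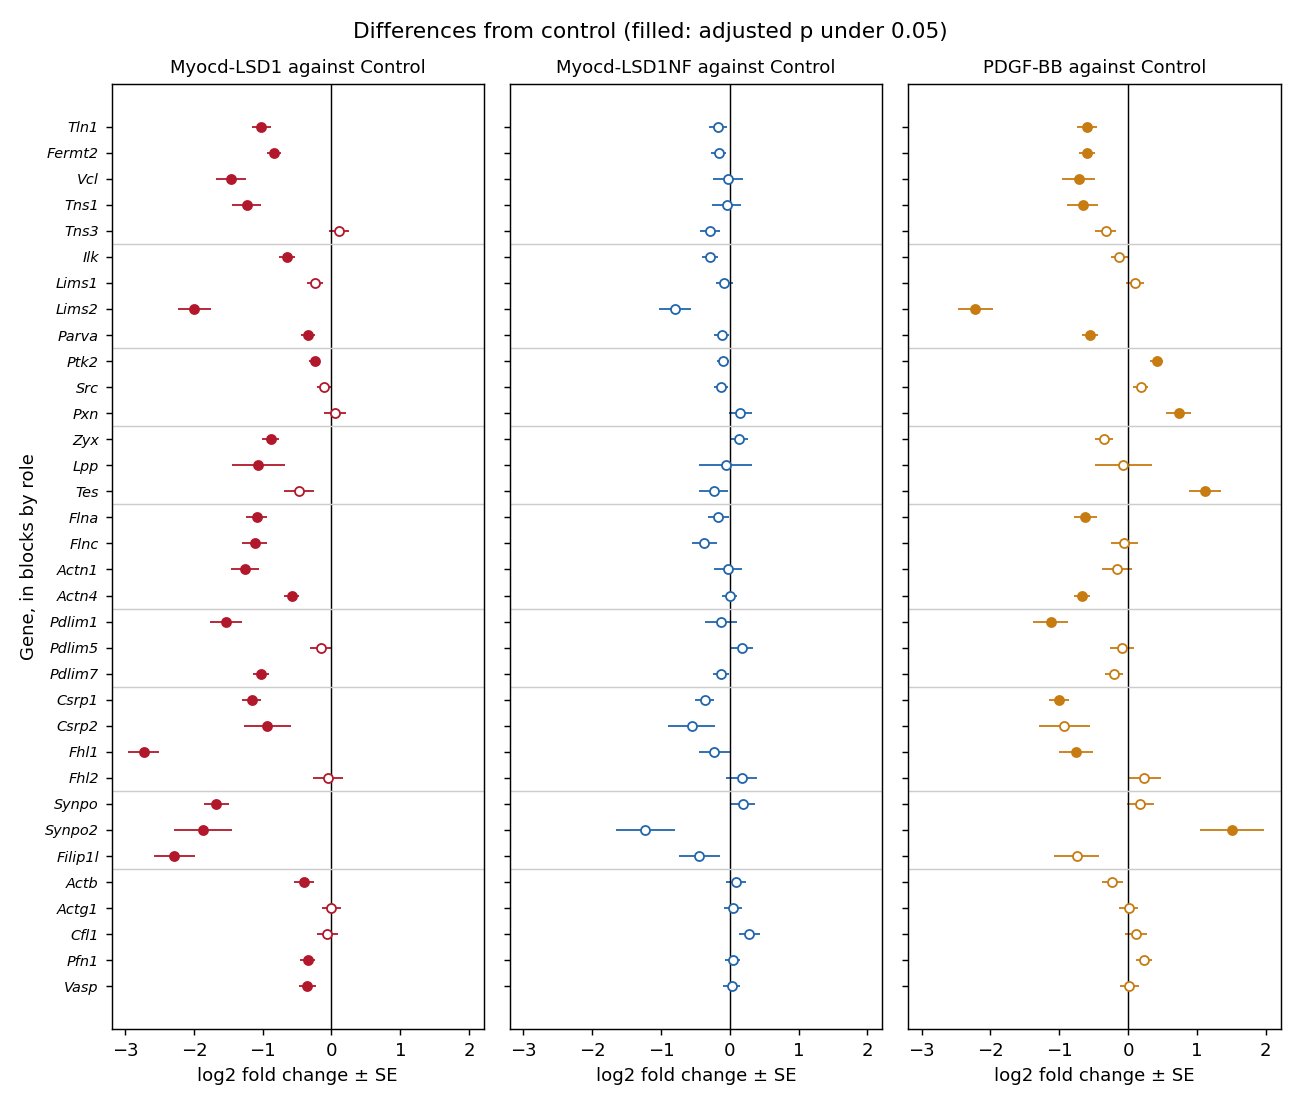
Points give the log2 fold change against control (x axis, log2(TPM + 1) scale, bars ± SE from limma) of the 34 tested members (y axis, in blocks by role) for Myocd-LSD1, Myocd-LSD1NF and PDGF-BB, filled where the adjusted p was under 0.05. Of the points, 25 are filled on the left of 0 for Myocd-LSD1, 0 are filled for Myocd-LSD1NF, and 11 on the left and 4 on the right for PDGF-BB. Of all tested genes, 15.4% were called lower and 16.9% higher in Myocd-LSD1, 2.21% either way in Myocd-LSD1NF, and 8.5% lower and 19.2% higher with PDGF-BB.

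The PDZ-LIM proteins bind alpha-actinin through a PDZ domain. Pdlim1 read 477, 525, 289 and 320.4 TPM in controls 1 to 4, 148, 209 and 184 in PDGF-BB 1 to 3, 139.9, 101, 215 and 107 in Myocd-LSD1 1 to 4, and 419, 359.7, 309 and 349 in Myocd-LSD1NF 1 to 4. It overlapped in neither Myocd-LSD1 nor PDGF-BB with control, and controls 1 and 2 stood above controls 3 and 4. Pdlim1 fell in Myocd-LSD1 (-1.53 ± 0.23, adjusted p = 0.000136) and with PDGF-BB (-1.13 ± 0.25, adjusted p = 0.00462). Pdlim7, enigma, read 308, 357, 342 and 326 TPM in controls 1 to 4, 279, 290.3 and 297 in PDGF-BB 1 to 3, 128, 156, 202 and 173 in Myocd-LSD1 1 to 4, and 273, 339, 314 and 297 in Myocd-LSD1NF 1 to 4. The Myocd-LSD1 libraries lay below all others (-1.03 ± 0.12, adjusted p = 1.17e-05), and the PDGF-BB difference was -0.21 ± 0.13 (adjusted p = 0.249). Pdlim5 passed in no comparison, at 298 ± 16.1 TPM in control and 269 ± 31.7 TPM in Myocd-LSD1 (-0.15 ± 0.16, adjusted p = 0.516).

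Among the LIM-only proteins Fhl1 had the largest fall of all members in Myocd-LSD1. Fhl1, a muscle LIM protein of the FHL family, read 1844, 1868, 2008 and 1422 TPM in controls 1 to 4, 1384, 1046 and 792 in PDGF-BB 1 to 3, 245, 194, 423 and 251 in Myocd-LSD1 1 to 4, and 1640.5, 1527, 1804 and 1169 in Myocd-LSD1NF 1 to 4. The line lay below every other library, and with PDGF-BB the values were also below every control but uneven. Fhl1 fell in Myocd-LSD1 (-2.73 ± 0.23, adjusted p = 4.92e-07) and with PDGF-BB (-0.76 ± 0.24, adjusted p = 0.0312), the latter lost without control 1, 2 or 3 or PDGF-BB 2 or 3 and with no filter on low genes (adjusted p of up to 0.159). Its relative Fhl2 passed in no comparison, at 38.05 ± 5.60 TPM in control and 38.05 ± 12.97 TPM in Myocd-LSD1 (-0.05 ± 0.22, adjusted p = 0.901). The Fhl1 to Fhl2 ratio ran from 36.3 to 55.8 in control to 14.2 to 39.1 with PDGF-BB and 4.92 to 9.41 in Myocd-LSD1.

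Csrp1, a cysteine-rich LIM protein of smooth muscle that binds zyxin and alpha-actinin, read 1853, 2327, 2313 and 1877 TPM in controls 1 to 4, 1066, 948 and 1099 in PDGF-BB 1 to 3, 848, 886, 1158 and 865 in Myocd-LSD1 1 to 4, and 1585, 1588, 1953 and 1387 in Myocd-LSD1NF 1 to 4. The Myocd-LSD1 and PDGF-BB libraries overlapped each other and lay below all controls. Csrp1 fell in Myocd-LSD1 (-1.16 ± 0.14, adjusted p = 1.56e-05) and with PDGF-BB (-1.01 ± 0.15, adjusted p = 0.000284). Csrp2, its vascular relative, was at 76.9 ± 37.03 TPM in control, where control 3 read 132 TPM, and 37.6 ± 7.43 TPM in Myocd-LSD1 (-0.93 ± 0.34, adjusted p = 0.0489). That call was lost without Myocd-LSD1 1, 2 or 4, Myocd-LSD1NF 1 or 2, control 1, 2 or 3 or any PDGF-BB library. It was also lost with a pseudocount of 0.1 or 5, with no filter or a filter on the mean, and under median-of-ratios scaling, with an adjusted p of up to 0.245 over all alternatives. With PDGF-BB Csrp2 averaged 37.6 ± 5.42 TPM, below every control, and did not pass (-0.92 ± 0.37, adjusted p = 0.0743), though it did with a replicate block, with array weights, in a fit to only the groups being compared and without Myocd-LSD1NF 3 or 4.

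All 3 tested stress fibre scaffolds fell in Myocd-LSD1, and 1 of them rose with PDGF-BB. Synpo, synaptopodin, an actin and alpha-actinin binding protein, read 159, 171, 161 and 150.4 TPM in controls 1 to 4, 233, 195 and 131 in PDGF-BB 1 to 3, 60.4, 39.4, 55.8 and 44.8 in Myocd-LSD1 1 to 4, and 229, 207, 162 and 143 in Myocd-LSD1NF 1 to 4. Every Myocd-LSD1 library was below every other library (-1.68 ± 0.18, adjusted p = 7.13e-06), and PDGF-BB overlapped control (0.18 ± 0.20, adjusted p = 0.534). Synpo2, myopodin, its muscle relative, read 13.2, 10.0, 10.1 and 8.37 TPM in controls 1 to 4, 36.1, 39.3 and 21.4 in PDGF-BB 1 to 3, 2.70, 1.33, 2.70 and 1.88 in Myocd-LSD1 1 to 4, and 6.47, 6.85, 5.49 and 0.420 in Myocd-LSD1NF 1 to 4. The PDGF-BB libraries lay above all controls and all 8 libraries of the 2 lines lay below them, with Myocd-LSD1NF 4 the lowest. Synpo2 fell in Myocd-LSD1 (-1.87 ± 0.43, adjusted p = 0.00339) and rose with PDGF-BB (1.51 ± 0.46, adjusted p = 0.0242), the latter lost without control 3 or 4 or PDGF-BB 1 or 2 and with a pseudocount of 0.1 (adjusted p of up to 0.0955).

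Filip1l, a relative of the filamin-binding protein FILIP1, read 97.2, 109, 88.3 and 61.9 TPM in controls 1 to 4, 49.02, 44.1 and 63.9 in PDGF-BB 1 to 3, 15.7, 13.4, 40.1 and 9.87 in Myocd-LSD1 1 to 4, and 62.4, 70.3, 59.8 and 63.8 in Myocd-LSD1NF 1 to 4. It fell in Myocd-LSD1 (-2.28 ± 0.30, adjusted p = 4.19e-05), where library 3 was the highest and still below every control. With PDGF-BB it did not pass (-0.74 ± 0.33, adjusted p = 0.104), though it did under median-of-ratios scaling, a replicate block, array weights and a fit to only the groups being compared, and without Myocd-LSD1 3 or Myocd-LSD1 2 and 4 together. Palld_2, which carries nearly all palladin signal in the table, averaged 217 ± 15.6 TPM in control, 102 ± 20.97 with PDGF-BB, 65.6 ± 13.7 in Myocd-LSD1 and 162 ± 51.1 in Myocd-LSD1NF. It was lower in Myocd-LSD1 (-1.73 ± 0.22, adjusted p = 2.80e-05) and with PDGF-BB (-1.11 ± 0.24, adjusted p = 0.00366). These values are uncertain, since the symbol is split over 2 entries and Palld_1 stayed under 1 TPM.

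Of the 5 actins and actin assembly proteins, Actb, Pfn1 and Vasp were lower in Myocd-LSD1 and Actg1 and Cfl1 did not pass. Actg1, cytoplasmic gamma actin, read 4598, 4492, 4727 and 4151 TPM in controls 1 to 4, 4075, 4319 and 5218 in PDGF-BB 1 to 3, 4593, 4253, 5237 and 3945 in Myocd-LSD1 1 to 4, and 4504, 4891, 4698 and 4457 in Myocd-LSD1NF 1 to 4. All 4 groups overlapped (-0.00 ± 0.13, adjusted p = 0.995 in Myocd-LSD1). Actb, cytoplasmic beta actin, read 8199.9, 9371, 8593 and 7693 TPM in controls 1 to 4, 6968, 7478 and 7179 in PDGF-BB 1 to 3, 6848, 5771, 7379 and 5686 in Myocd-LSD1 1 to 4, and 9309, 9454, 8741 and 8598 in Myocd-LSD1NF 1 to 4. Its Myocd-LSD1 and PDGF-BB libraries all lay below the lowest control, and Actb was lower in Myocd-LSD1 (-0.40 ± 0.14, adjusted p = 0.0426). The call for Actb was lost in 15 of 25 alternatives (adjusted p of up to 0.343), among them quantile normalization and leaving out Myocd-LSD1 1, 2 or 4, Myocd-LSD1NF 1 or 2, control 1, 2 or 3 or any PDGF-BB library. The Actb to Actg1 ratio was 1.78 to 2.09 in control, 1.38 to 1.73 with PDGF-BB, 1.36 to 1.49 in Myocd-LSD1 and 1.86 to 2.07 in Myocd-LSD1NF. The PDGF-BB and Myocd-LSD1 libraries lay below the control range and overlapped each other. No source used here says how reads shared by near-identical genes such as these and their processed copies were assigned, so the split between Actb and Actg1 is uncertain.

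Pfn1, profilin, which feeds actin monomers to growing filaments, was lower in Myocd-LSD1 (1293 ± 131 against 1641 ± 160.4 TPM, -0.34 ± 0.11, adjusted p = 0.0264). So was Vasp, an elongation factor at adhesions (178 ± 26.7 against 228 ± 35.2 TPM, -0.35 ± 0.12, adjusted p = 0.0430). Both genes overlapped control. The highest Myocd-LSD1 and lowest control values were 1470.5 and 1409 TPM for Pfn1, and 217 and 198 TPM for Vasp. Without Myocd-LSD1 2 both calls were lost, as they were without Myocd-LSD1 4 and without control 2 or 3. Both were also lost when only the compared groups entered the fit. Pfn1 was lost also without control 1, and Vasp without Myocd-LSD1 1, Myocd-LSD1NF 2 or PDGF-BB 1 or 3, with no filter on low genes and under median-of-ratios scaling. Adjusted p reached 0.225 for Pfn1 and 0.232 for Vasp over all alternatives. Cfl1, cofilin, which severs filaments, did not pass (-0.06 ± 0.15, adjusted p = 0.801) and averaged 1794 ± 97.8 TPM in control.

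**Figure D3:**
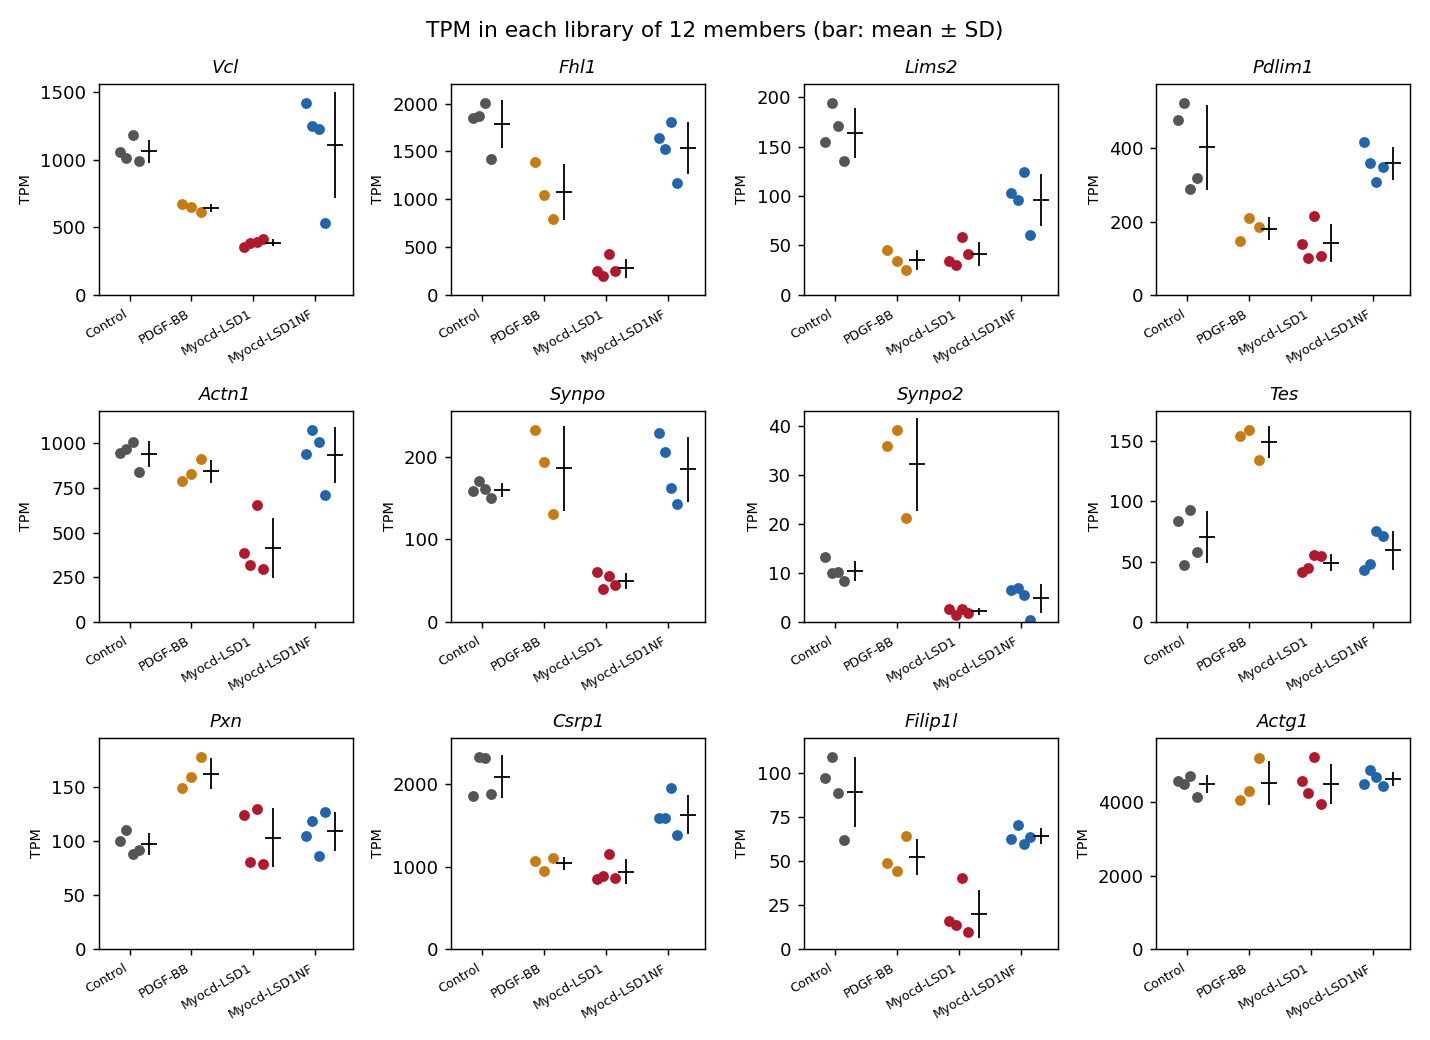
TPM (y axis, from 0) of 12 members in each library of the 4 groups (x axis), with the mean and SD as a bar beside the points. Fhl1, Vcl, Synpo and Actn1 are lowest in Myocd-LSD1, Tes, Pxn and Synpo2 are highest with PDGF-BB, and Actg1 overlaps in all groups.

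Promoter windows were looked up for the members because SRF binds a known element, the CArG box. RefSeq windows of 300 bases on GRCr8, from 250 bases before to 50 after the start, were matched by symbol for 28 of the 36 members and gave 38 windows. A CArG box was found in 4 of them (10.5%), which belong to 3 genes, against 1.64% of all 33469 windows. The windows are shown because they hold both the member with the largest fall in Myocd-LSD1 (Fhl1) and 2 members that did not pass there (Fhl2, with 2 starts, and Actg1). Capitals mark the CArG box, 5′ to 3′ in the direction of the gene. It begins 102 bases before the start of Fhl1 (chrX:139638246-139638545, plus strand), 95 and 58 before those of Fhl2 (chr9:52954491-52954790 and chr9:52923277-52923576, minus strand) and 90 before that of Actg1 (chr10:106120902-106121201, minus strand).
Fhl1: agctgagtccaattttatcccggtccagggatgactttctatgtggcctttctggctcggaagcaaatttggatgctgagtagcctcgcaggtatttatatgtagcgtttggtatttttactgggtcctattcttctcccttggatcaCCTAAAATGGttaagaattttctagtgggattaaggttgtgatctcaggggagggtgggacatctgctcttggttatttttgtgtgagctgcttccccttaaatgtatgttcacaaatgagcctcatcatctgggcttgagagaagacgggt
Fhl2, first start: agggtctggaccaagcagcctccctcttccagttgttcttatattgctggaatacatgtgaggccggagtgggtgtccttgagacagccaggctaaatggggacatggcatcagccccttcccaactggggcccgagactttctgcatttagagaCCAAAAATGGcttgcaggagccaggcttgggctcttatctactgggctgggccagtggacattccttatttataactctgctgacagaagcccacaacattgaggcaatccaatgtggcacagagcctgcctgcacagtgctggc
Fhl2, second start: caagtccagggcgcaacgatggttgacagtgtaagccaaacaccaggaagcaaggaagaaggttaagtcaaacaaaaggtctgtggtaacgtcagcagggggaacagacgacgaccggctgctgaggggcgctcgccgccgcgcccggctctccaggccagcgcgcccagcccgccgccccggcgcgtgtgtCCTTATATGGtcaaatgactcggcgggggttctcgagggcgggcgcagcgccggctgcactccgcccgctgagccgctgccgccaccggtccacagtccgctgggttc
Actg1: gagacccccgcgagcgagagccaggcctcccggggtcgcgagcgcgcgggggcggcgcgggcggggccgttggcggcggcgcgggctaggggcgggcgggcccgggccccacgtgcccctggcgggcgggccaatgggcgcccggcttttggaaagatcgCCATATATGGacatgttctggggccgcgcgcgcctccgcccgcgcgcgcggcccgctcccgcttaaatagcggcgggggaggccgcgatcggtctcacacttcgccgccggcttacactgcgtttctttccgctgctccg

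Other elements were searched on both strands of the same windows. The MCAT element CATTCC, bound by TEAD factors, was in 8 of 38 windows (21.1%, against 14.2% of all windows), those of Fhl2, Flna, Flnc, Lims2, Palld, Pfn1, Vcl and Zyx. Of these, Flna, Flnc, Lims2, Pfn1, Vcl and Zyx were lower in Myocd-LSD1, Fhl2 did not pass and Palld is given apart. Over the whole set, 25 of the 34 tested members were lower there. Whether the calls go with this element was not tested, and 8 members had no window. The AP-1 element TGANTCA was in 1 window (2.63% against 7.33%), that of Filip1l. The GC box GGGCGG was in 23 windows (60.5% against 33.1%). A match describes these letters in these windows, and no match says nothing of other regions.

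In Myocd-LSD1NF against control, 0 of the 34 members passed with limma (background 2.21% called, 0.475% higher and 1.74% lower, and 1.23% with at least a 2-fold change), 4 had an unadjusted p under 0.05, and 24 had a negative log2 fold change. The 270 genes called in this comparison became 128 without Myocd-LSD1NF 2 and 109, 112 and 171 without control 1, 2 or 3, and 919 with array weights. Among tested genes averaging at least 100 TPM, 0.778% were called higher and 0.778% lower. The median log2 fold change was -0.11 over members and -0.0469 over all tested genes. The lowest adjusted values were those of Lims2 (-0.80 ± 0.24, adjusted p = 0.103) and Synpo2 (-1.23 ± 0.43, adjusted p = 0.166). With array weights, which give less weight to scattered libraries, Lims2 alone was called. Myocd-LSD1NF 4 was below its group in several members, such as Vcl (535 against 1224 to 1422 TPM), Synpo2 (0.420 against 5.49 to 6.85 TPM) and Actn1. Pdlim5 (216 against 364 to 408 TPM) and Cfl1 (1652 against 2328 to 2520 TPM) were also among them. In others it was above its group, such as Flnc (246 against 130 to 182 TPM) and Parva (248 against 194 to 228 TPM). A p that misses the threshold does not show equal levels.

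The 2 lines were also compared directly. In Myocd-LSD1, 20 of 34 members were lower and 0 higher (background 31.8% called, 12.7% lower and 19.1% higher), and 1 was higher at an unadjusted p under 0.05. At least 2-fold, 9 members were lower, where 10.5% of tested genes were called with such a change, and among genes averaging at least 100 TPM 14.2% were called higher and 19.1% lower. The median log2 fold change was -0.609 over members and 0.0717 over all tested genes. Fhl1 (-2.50 ± 0.23, adjusted p = 1.34e-06), Synpo (-1.86 ± 0.18, adjusted p = 3.18e-06), Filip1l (-1.84 ± 0.30, adjusted p = 0.000338) and Vcl (-1.43 ± 0.22, adjusted p = 0.000209) differed most. Lims2 (-1.20 ± 0.24) and Csrp1 (-0.79 ± 0.14) differed too, while Synpo2 (-0.64 ± 0.43, adjusted p = 0.272) and Lpp (-1.01 ± 0.38, adjusted p = 0.0593) did not pass. Leaving out Myocd-LSD1 2 ended the calls of Ilk, Actb, Pfn1 and Vasp and gave 16 members, and leaving out Myocd-LSD1NF 4 gave 24. The calls over all tested genes went the same way, from 3877 to 3145 and to 4039.

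PDGF-BB gave 6 of 8 SMC markers lower than control. Cnn1 did not pass (-1.94 ± 0.74, adjusted p = 0.0655), though its PDGF-BB libraries lay below every control (308 to 423 against 1109 to 1543 TPM). Des did not pass either (0.35 ± 0.25, adjusted p = 0.322). In the set PDGF-BB gave changes both ways. Of 34 members 4 rose (Tes, Pxn, Ptk2 and Synpo2) and 11 fell, led by Lims2, Pdlim1 and Csrp1, against a background of 27.7% called, 19.2% higher and 8.5% lower. The 3384 genes behind that background became 2137 without PDGF-BB 3. Among tested genes averaging at least 100 TPM, 24.3% were called higher and 15.3% lower. At least 2-fold, 2 members rose and 3 fell, where 8.97% of tested genes were called with such a change. The median tested gene had a log2 fold change of 0.125 in this comparison, which median-of-ratios scaling moved to -0.00609, so the rises are smaller and the falls larger by that amount relative to the median gene. Under that scaling 4 members rose and 14 fell, with Tns3, Zyx and Filip1l added. The calls of 10 members, Actn4, Csrp1, Fermt2, Lims2, Parva, Pdlim1, Tln1, Ptk2, Pxn and Tes, held in all 25 alternatives, and 5 did not.

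Differences between the Myocd-LSD1 line and PDGF-BB were tested directly. In Myocd-LSD1, 17 of 34 were lower and 1 higher than with PDGF-BB (background 31.1% called, 20.5% lower and 10.6% higher). At least 2-fold, 7 members were lower, where 11.9% of tested genes were called with such a change, and among genes averaging at least 100 TPM 16.9% were called higher and 30% lower. The largest differences were in Synpo2 (-3.38 ± 0.46, adjusted p = 8.77e-05), Fhl1 (-1.97 ± 0.24, adjusted p = 4.00e-05), Synpo (-1.86 ± 0.20, adjusted p = 9.58e-06), Tes (-1.59 ± 0.23, adjusted p = 0.000139) and Filip1l (-1.54 ± 0.33, adjusted p = 0.00247). Actn1 (-1.10 ± 0.22, adjusted p = 0.00158), Flnc (-1.06 ± 0.19, adjusted p = 0.000900), Pdlim7 (-0.82 ± 0.13, adjusted p = 0.000253), Ptk2 (-0.66 ± 0.09, adjusted p = 0.000102) and Pfn1 (-0.58 ± 0.12, adjusted p = 0.00201) were also lower in the line. No difference passed for Csrp1 (-0.15 ± 0.15), Csrp2 (-0.01 ± 0.37), Actn4 (0.09 ± 0.12), Parva (0.21 ± 0.11), Fermt2 (-0.24 ± 0.11) or Pdlim1 (-0.41 ± 0.25), which does not show that these are equal. The higher member was Tns3 (0.43 ± 0.15, adjusted p = 0.0460). That call was lost in 13 of 25 alternatives, and in 10 of the 15 that left out 1 library (adjusted p of up to 0.257). Without Myocd-LSD1 2 and 4 together 10 members differed, the genes called over the whole table went from 3792 to 2242, and Tln1, Vcl, Ilk, Pxn, Zyx, Flna, Vasp and Tns3 no longer passed.

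Other genes of the same structures were listed by role. Of 31 tested focal adhesion adaptors outside the set, 9 rose and 9 fell in Myocd-LSD1, with a median log2 fold change of -0.00791, where 16.9% of all tested genes were called higher and 15.4% lower. The genes that rose included relatives of members that fell, namely Parvb, beta-parvin (3.48 ± 1.44 to 28.4 ± 6.29 TPM, 2.75 ± 0.44, adjusted p = 0.000220), and Tln2, talin-2 (9.42 ± 2.87 to 32.8 ± 10.8 TPM, 1.68 ± 0.31, adjusted p = 0.000709). Those that fell included Sorbs2, a vinculin-binding adaptor (-2.66 ± 0.27, adjusted p = 3.48e-06), and Nexn, nexilin, an actin-binding protein (-2.12 ± 0.26). With PDGF-BB 6 rose, led by Parvb (2.74 ± 0.48, adjusted p = 0.000915), Fhl3 (1.43 ± 0.12) and Tns2 (0.98 ± 0.21), and 8 fell, led by Nedd9 (-2.42 ± 0.26), Ptk2b (-1.71 ± 0.39) and Sorbs2 (-1.71 ± 0.29), where 19.2% of all tested genes were called higher and 8.5% lower. In Myocd-LSD1NF 1 fell, Ldb3, a PDZ-LIM protein (-1.24 ± 0.22, adjusted p = 0.00723), and 0 rose, against 1.74% and 0.475% of all tested genes.

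Ratios within pairs of related genes in each library are given as a description with no test, and the first 2 pairs were chosen after their values were seen. Parva to Parvb was 43.5 to 110.2 in control, 4.17 to 9.96 with PDGF-BB and 5.17 to 9.06 in Myocd-LSD1. Tln1 to Tln2 was 30.5 to 59.2, 14.4 to 23.5 and 4.73 to 9.47 in the same groups. In these 2 pairs neither PDGF-BB nor Myocd-LSD1 overlapped control, and the abundant member of each pair remained the more abundant one in every library. Flna to Flnc did not separate Myocd-LSD1 (8.49 to 12.8) from control (9.98 to 10.8), nor did Csrp1 to Csrp2 (22.3 to 28.3 and 17.5 to 39.1). With PDGF-BB, Flna to Flnc lay below control (6.12 to 7.72) and Csrp1 to Csrp2 overlapped it (24.4 to 32.9). Tns1 to Tns3 was 4.58 to 5.70 in control, 3.80 to 4.52 with PDGF-BB and 1.36 to 2.77 in Myocd-LSD1. Synpo to Synpo2 was 12.02 to 17.97 in control, 4.96 to 6.46 with PDGF-BB and 20.65 to 29.6 in Myocd-LSD1. In Myocd-LSD1NF it was 29.55 to 341, the highest in library 4.

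**Figure D4:**
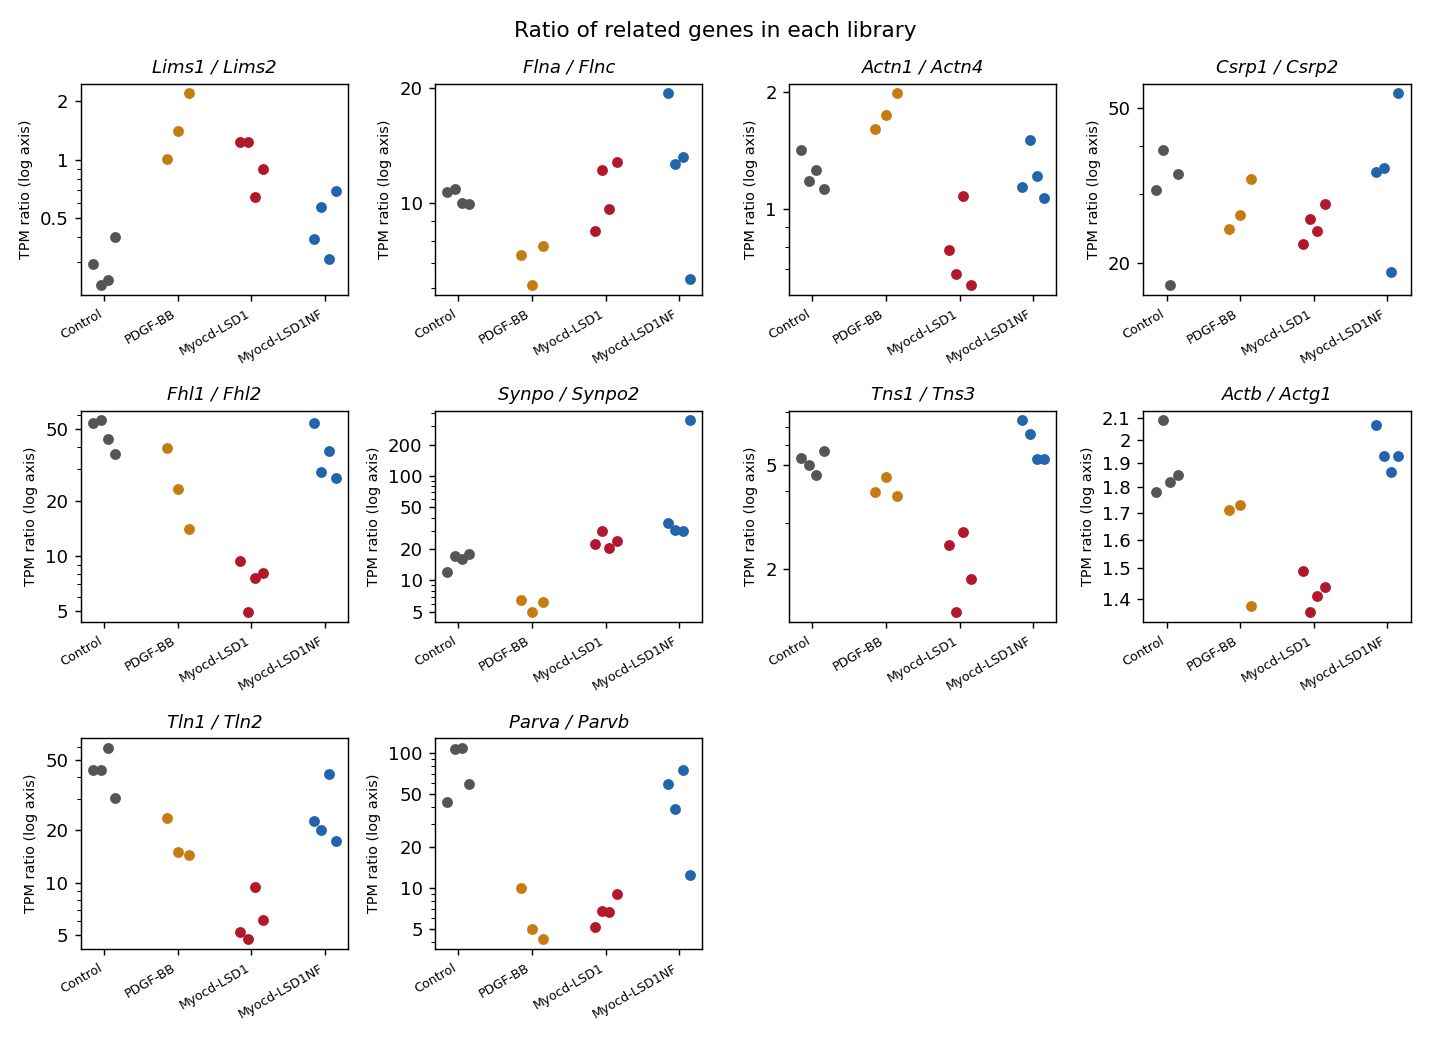
Ratio of TPM between 10 pairs of related genes (y axis, log scale) in each library of the 4 groups (x axis). In Myocd-LSD1 the Parva and Tln1 ratios to Parvb and Tln2 lie below the control range, and the Lims1 to Lims2 ratio lies above it.

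Of 31 tested genes of actin assembly and turnover, 4 rose and 11 fell in Myocd-LSD1 (median log2 fold change -0.101), where 16.9% of all tested genes were called higher and 15.4% lower. With PDGF-BB 10 rose and 2 fell (median 0.261), where 19.2% of all tested genes were called higher and 8.5% lower. In Myocd-LSD1NF 0 rose and 2 fell (median -0.0368), against 0.475% and 1.74% of all tested genes. In Myocd-LSD1 Fscn1, fascin, a bundling protein, went from 4.04 ± 1.07 to 0.0175 ± 0.0350 TPM (-2.29 ± 0.17, adjusted p = 1.40e-07), Dstn, destrin, from 4466 ± 1339 to 1319.7 ± 90.3 TPM (-1.71 ± 0.18, adjusted p = 5.33e-06) and Coro1c, a coronin, from 186 ± 12.7 to 82.0 ± 10.7 TPM. The rises were led by Capg, a capping protein (1.26 ± 0.22, adjusted p = 0.000519), Enah, a relative of Vasp (0.82 ± 0.15), and the Arp2/3 subunit Arpc1b (0.54 ± 0.09). Capg (1.41 ± 0.24), Arpc1b (0.92 ± 0.10) and the formin Diaph3 (0.87 ± 0.23) led the rises with PDGF-BB, and Dstn (-1.42 ± 0.20) and Tmsb4x, thymosin beta 4 (-1.06 ± 0.28), fell. Fscn1 (-2.03 ± 0.17, adjusted p = 9.58e-06) and Dstn (-0.77 ± 0.18, adjusted p = 0.0397) were the 2 genes that fell in Myocd-LSD1NF.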

How the data were processed

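RNA-seq libraries of 15 samples were analysed from the deposited table of TPM, which the authors computed per gene. The labels' protocols give poly(A)-selected stranded libraries; no source used here names the aligner, the counter or the genome build. TPM keep no depth, so no counting interval can be given. Another 4 columns of the table, the authors' group means, were not used. Groups were taken from the sample labels.

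Genes with at least 1 TPM in at least 3 libraries (12207 of 32623) were tested on log2(TPM + 1), which understates changes of low genes, with limma 3.58.1 in R 4.3.3 (1 mean per group, all 15 libraries, eBayes with trend). P-values were two-sided and adjusted by Benjamini-Hochberg over all tested genes, with a threshold of 0.05. The steps were tested on simulated data. Python 3.11.15 with pandas 2.3.3 and numpy 2.4.6 served for tables, and matplotlib 3.10.9 for plots.

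Per-library values are given for members called with at least a 2-fold change in any comparison and for Actb, Actg1, Vcl, Tln1, Ilk and Src. Genes of other lists are named from the 3 leading ones in each direction, and a few results are not reported here. The members and lists were chosen with earlier results of these data known. Each comparison was repeated under 25 alternatives: other pseudocounts (0.1 and 5), filters, scalings, weights and models, and with libraries left out.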

Additional observations from a re-analysis of the deposited data

Results flagged for a closer look

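In groups of 4 libraries, 1 value stood far from the other 3 relative to the range of the group in 4 of 102 sets of member values, where chance flags about 1 in 20, or 5.1 sets. Csrp1 read 1158 TPM in Myocd-LSD1 3 and 848.1 to 886.4 TPM in the other libraries of the line. Actn4 read 605.8 TPM in Myocd-LSD1 3 against 465.1 to 488.8 TPM. Lims1 read 42.57 TPM in Myocd-LSD1 1 against 37.08 to 37.77 TPM. Csrp2 read 132.4 TPM in control 3 against 55.43 to 60.35 TPM in the other controls.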

How the results depend on the processing

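Over the 25 alternatives no called member changed sign. Calls kept in all 25 were 18 of 25 for Myocd-LSD1 against control, 10 of 15 for PDGF-BB against control, 15 of 20 for Myocd-LSD1 against Myocd-LSD1NF and 10 of 18 for Myocd-LSD1 against PDGF-BB. Without 1 library at a time the members called numbered 18 to 25, 11 to 17, 16 to 24 and 13 to 20 in that order, and 0 to 0 for Myocd-LSD1NF against control. The calls over all tested genes moved too, at 3253 to 4100, 2137 to 3589, 3145 to 4039, 2859 to 3986 and 109 to 312. Array weights gave 1 member call for Myocd-LSD1NF against control, Lims2, and 919 calls over all tested genes. Without Myocd-LSD1 2 and 4 together, 10 members differed between Myocd-LSD1 and PDGF-BB, and 2242 of all tested genes. The cause was not tested. Same-numbered libraries did not deviate together in every pair. Correlations were -0.0715 to 0.245 for Myocd-LSD1 and control, -0.0829 to 0.576 for Myocd-LSD1NF and control, and -0.225 to 0.139 for PDGF-BB and control. Such mixed values cannot show whether a number marks a shared culture or day, which the labels do not say. With a replicate block the calls were 25, 18, 22 and 19 in the order above, and 0 for Myocd-LSD1NF against control. Over all tested genes the block gave 4246, 3565, 4232, 3719 and 342 calls, where the reported fit gave 3936, 3384, 3877, 3792 and 270. Libraries that correlated best with their own number were 3 of 4 for Myocd-LSD1 and control, 2 of 4 for Myocd-LSD1NF and control, and 0 of 3 for PDGF-BB and control. Myocd-LSD1 libraries did so in 1 of 4 cases with Myocd-LSD1NF and 1 of 3 with PDGF-BB. These counts, too, cannot show whether a number marks a shared culture or day. TPM give no depth, so the precision of low members such as Synpo2 cannot be stated beyond the spread between libraries.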
